A study of Stylosanthes guianensis with 6 samples.

Results

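Of 173014 unigenes from roots of stylo (*Stylosanthes guianensis*), a tropical forage legume, the study listed 3 changed ones as aluminum-activated malate transporters (ALMTs). They were Cluster-34276.1, described as ALMT2 by its match to *Vitis vinifera*; Cluster-8255.39231, described as ALMT9-like by its match to *Cicer arietinum*; and Cluster-8255.82925, described as ALMT10-like by its match to *Jatropha curcas*. The study had listed these unigenes because their counts changed between the treatments in these same libraries. The LP against HP values below therefore chose the members and are given as a description. No p is printed for them, and where the text says that a member was called, this only places it by the rule applied to all unigenes and supports nothing. ALMT unigenes outside the study's list of changed transporters were not analysed here.

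RNA was sequenced from roots of 1 cultivar, RY2, in 3 LP and 3 HP libraries. Seeds were germinated for 3 d and seedlings were precultured for 14 d at 250 μM KH2PO4, so plants of both treatments had shared this sufficient supply. They were then kept hydroponically for 21 d at 0 μM (LP, low phosphorus) or 250 μM (HP, high phosphorus) KH2PO4, and a replicate was a box of seedlings. In the sample labels these doses stand reversed, and the groups follow the sample titles and the study's definition of LP.

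ALMTs are a plant family of anion channels in the plasma membrane and the tonoplast, through which malate and inorganic anions pass. The best known members release malate from root tips, where it binds aluminum ions, and malate in the soil can also free phosphate held by aluminum and iron. In *Arabidopsis*, ALMT9 is a vacuolar channel for malate and chloride, whereas the ALMT2 and ALMT10 names rest on similarity alone and no role is assigned to those unigenes here. The names of all 3 come from sequence matches to other species, so substrate and membrane were not measured in stylo.

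All 3 ALMT unigenes were lower under LP than under HP, and every LP library lay below every HP library. By the ratio of mean normalized counts, ALMT2 was 4.50-fold lower, ALMT9-like 4.02-fold lower and ALMT10-like 3.31-fold lower (n = 3 per treatment). ALMT10-like was by far the most abundant, at 32.2 ± 0.427 FPKM under HP, whereas ALMT2 and ALMT9-like had 2.79 ± 0.600 and 1.23 ± 0.327 FPKM (SD, n = 3). FPKM values are scaled for unigene length and library size, so unigenes of different length can be compared. In bulk roots, fewer cells that express a gene and less of its RNA per cell cannot be told apart.

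**Figure D1:**
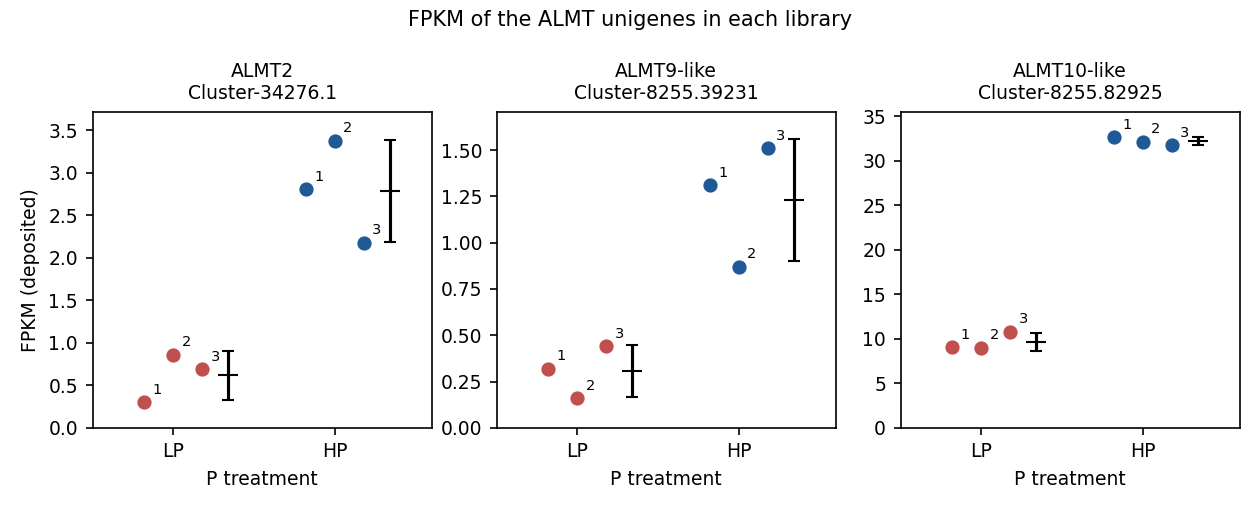
FPKM (vertical axis, linear, from 0, with a different range in each panel) of the ALMT unigenes in each LP and HP library. Points are libraries numbered by replicate and the bars show the mean ± SD of 3. ALMT10-like reached 31.8 to 32.6 FPKM under HP, and in each panel the LP points lie below all HP points.

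ALMT2 had 0.30, 0.86 and 0.69 FPKM in LP replicates 1 to 3, and 2.81, 3.38 and 2.18 FPKM in HP replicates 1 to 3. These values came from 10, 27.49 and 22.63 estimated counts under LP and 77.74, 82.02 and 54.96 under HP. LP replicate 1 was the lowest library, HP replicate 2 was the highest, and the treatments did not overlap. After scaling for library size, the lowest HP library still held 2.60 times the count of the highest LP library. The fitted log2 fold change was -2.16 ± 0.44 (SE).

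ALMT9-like had 0.32, 0.16 and 0.44 FPKM in the LP libraries and 1.31, 0.87 and 1.51 FPKM in the HP libraries. The estimated counts were 21.44, 10.39 and 28.40 under LP and 71.93, 41.96 and 75.59 under HP. Replicate 2 was the lowest library of this unigene in each treatment, and the groups did not overlap. This unigene had the narrowest gap of the 3 members, with the lowest HP library at 1.98 times the highest LP library. Its log2 fold change was -2.002 ± 0.45 (SE).

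ALMT10-like had 9.07, 8.99 and 10.79 FPKM in the LP libraries and 32.62, 32.13 and 31.77 FPKM in the HP libraries. The counts were 298.75, 280.85 and 344.23 under LP, against 881.97, 761.09 and 783.76 under HP. The HP libraries were almost level and LP replicate 3 was the highest of its treatment, yet it stayed well under all HP libraries. The lowest HP library held 2.86 times the scaled count of the highest LP library, and the log2 fold change was -1.72 ± 0.11 (SE).

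The sizes of the 3 decreases were not separated by these values, as each pair differed by less than its combined SE. That SE joins both estimates as if they were independent, although all come from the same libraries. It only describes the values, and no test was made. ALMT2 and ALMT10-like differed by -0.44 in log2 fold change, with a combined SE of 0.45. ALMT9-like and ALMT10-like differed by -0.28 with a combined SE of 0.47, and ALMT2 and ALMT9-like by -0.16 with a combined SE of 0.63.

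A unigene was called when its Benjamini-Hochberg adjusted p in edgeR's quasi-likelihood fit was under 0.05 and its absolute log2 fold change was at least 1. By this rule 3 of 3 ALMT unigenes were called lower, beside 7.1% of the 62040 tested unigenes called lower, 6.09% called higher and 13.2% called in either direction. Every LP library lay below every HP library in 21.8% of the tested unigenes. Because the members had been chosen on this contrast, nothing is read from their count. The median log2 fold change of all tested unigenes was 0.03, and 4.29%, 4.96% and 6.39% of them had a lower value than ALMT2, ALMT9-like and ALMT10-like.

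**Figure D2:**
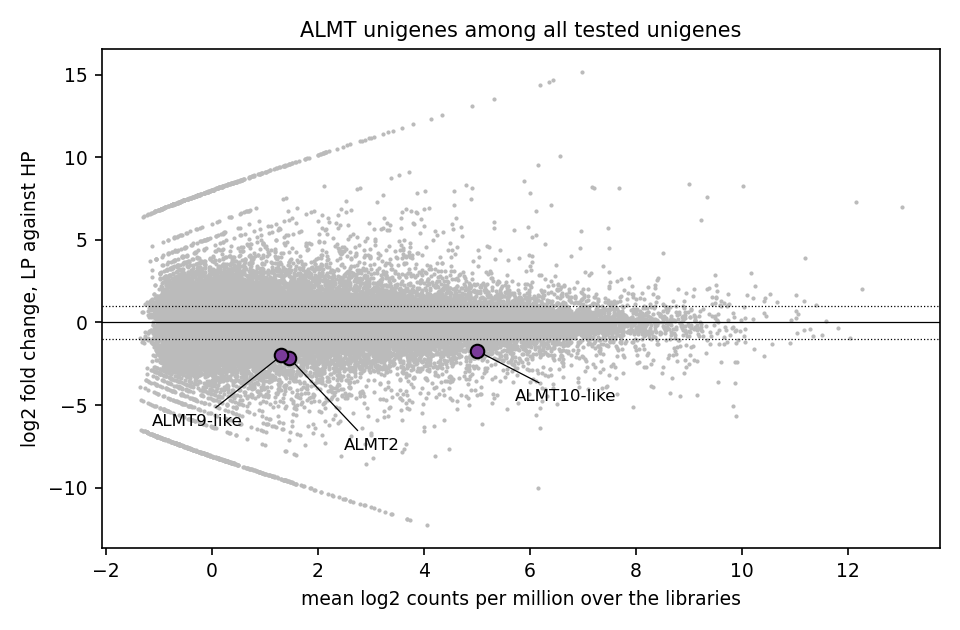
Log2 fold change of LP against HP (vertical axis) against mean log2 CPM (counts scaled for library size, horizontal axis) for 62040 tested unigenes in grey, with the ALMT unigenes in purple and dotted lines at a log2 fold change of 1 in each direction. ALMT2 and ALMT9-like lie at -2.16 and -2.002, and ALMT10-like lies further right, at a higher mean log2 CPM, at -1.72. The curved outer rows are unigenes without reads in one treatment. Their fold depends on the default prior count of the edgeR fit, not on the 2 used for log2 CPM.

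The ALMT unigenes differed strongly in how closely their replicates lay together. The coefficient of variation (CV) of ALMT10-like was 12.3% under LP and 1.17% under HP, where counting alone would give 5.70% and 3.52%. For ALMT2 the CV was 45.7% under LP and 22.1% under HP, beside 22.4% and 11.8% from counting. For ALMT9-like it was 47.3% and 26.2%, beside 22.5% and 12.6%. The tight HP libraries of ALMT10-like thus differed by less than counting error, whereas ALMT2 and ALMT9-like lay near the middle of the tested unigenes in their variation. The fitted biological variation of ALMT10-like was 0.119, and 5.42% of tested unigenes had less. It was 0.381 for ALMT2 and 0.399 for ALMT9-like, with 55.7% and 58.9% of tested unigenes below them.

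Leaving out each library in turn shows how far the values rest on single libraries. These fits reuse the libraries on which the members were chosen, so the calls kept in them are no support for a decrease. The log2 fold change of ALMT10-like ran from -1.83 to -1.66 over the 6 fits. That of ALMT2 ran from -2.43 to -1.82, and its call was lost without HP replicate 1 and without HP replicate 2. That of ALMT9-like ran from -2.37 to -1.68, and its call was lost without LP replicate 1, HP replicate 1 or HP replicate 3. A fit of FPKM with a pseudocount of 1 gave ALMT2 a log2 fold change of -1.23 and ALMT9-like -0.77, and ALMT9-like was not called there. On that scale a pseudocount near or above the FPKM of a low unigene understates its change.

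**Figure D3:**
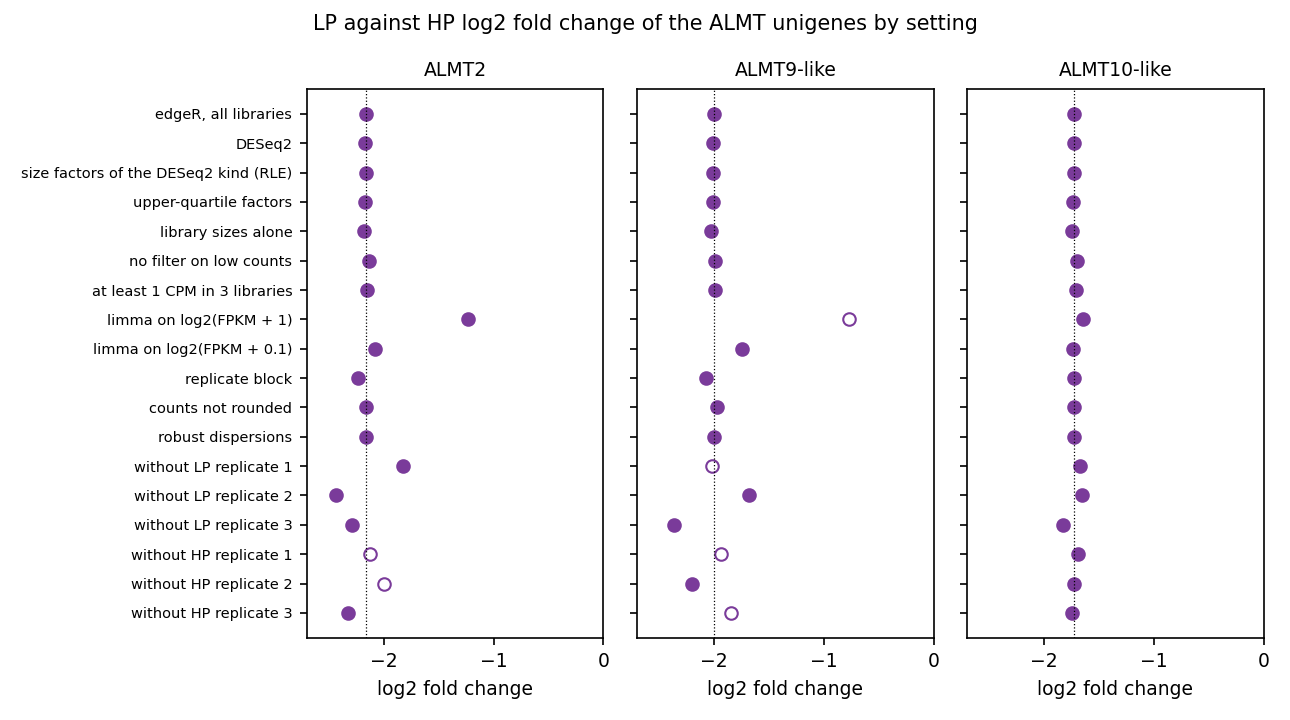
Log2 fold change of LP against HP (horizontal axis) for each ALMT unigene under the main fit and 17 other settings (rows). Filled points were called and open points were not, and the dotted line marks the main fit. ALMT10-like stayed between -1.83 and -1.65, whereas ALMT9-like ranged from -2.37 to -0.77.

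ALMT10-like made up most of the pool of the 3 listed ALMT unigenes in both treatments. ALMT unigenes outside the study's list were not analysed, so its share of all ALMT transcripts in the roots is unknown. The summed FPKM of the 3 unigenes were 9.69, 10.01 and 11.92 in the LP libraries and 36.74, 36.38 and 35.46 in the HP libraries. The pool was thus 3.43 times as large under HP, at 36.2 ± 0.660 against 10.5 ± 1.21 FPKM (SD, n = 3). ALMT10-like held 89.8% to 93.6% of it under LP and 88.3% to 89.6% under HP. ALMT2 held 3.096% to 8.59% under LP and 6.15% to 9.29% under HP, and ALMT9-like 1.598% to 3.69% under LP and 2.39% to 4.26% under HP.

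The order of the 3 levels was less certain at its lower end. ALMT10-like exceeded both others in 6 of 6 libraries, by at least 9.51 times ALMT2 and 21.0 times ALMT9-like. ALMT2 exceeded ALMT9-like in 5 of 6 libraries. The exception was LP replicate 1, where the ratio of ALMT2 to ALMT9-like was 0.938, and in the others it ran from 1.44 to 5.38. Under LP the ALMT2 and ALMT9-like libraries overlapped, and under HP the lowest ALMT2 library lay above the highest ALMT9-like library. Among tested unigenes, 91.7% had lower mean FPKM than ALMT10-like under HP and 76.1% under LP. For ALMT2 the shares were 52.6% and 19.4%, and for ALMT9-like 34.7% and 7.99%.

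Dividing each count by its FPKM and by the library total gives the effective length over which RSEM, the authors' counting tool, spread the reads of a unigene. It would move if reads shifted between long and short transcripts of a unigene. ALMT9-like had the longest effective length, 3096 ± 43.3 bases under LP and 3082 ± 11.3 under HP, with rounding of the deposited FPKM adding up to 3.13%. ALMT2 had 1546 ± 14.3 and 1552 ± 4.94 bases, and ALMT10-like 1514 ± 1.94 and 1517 ± 2.99 bases. LP minus HP differences were -6.49 bases for ALMT2, 13.6 for ALMT9-like and -3.22 for ALMT10-like. In exact two-sided permutation tests these had p = 0.7, 0.9 and 0.2, or 0.9, 0.9 and 0.6 after adjustment over the 3 unigenes, and 3 libraries against 3 can give no p below 0.1. These tests could not have passed 0.05, so they do not show that the lengths were alike. For ALMT10-like rounding was at most 0.0556%, smaller than its difference, and its LP libraries (1512 to 1516 bases) overlapped the HP libraries (1514 to 1519.8 bases). The median effective length of the tested unigenes was 1367 to 1378 bases per library.

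The study had grouped the ALMT unigenes with 17 others under dicarboxylate transporters, and most of that group was also lower under LP. Of the 20 unigenes, 18 had enough reads to be tested, 12 were called lower and 3 higher, and their median log2 fold change was -1.87. Without the ALMT unigenes, 9 of 15 tested were called lower and 3 higher, with a median of -1.74. The study's whole list of transporter unigenes had been chosen on these libraries too, and 160 of its 271 tested members were called lower and 80 higher, with a median of -1.59. Neither list is independent evidence of its direction.

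**Figure D4:**
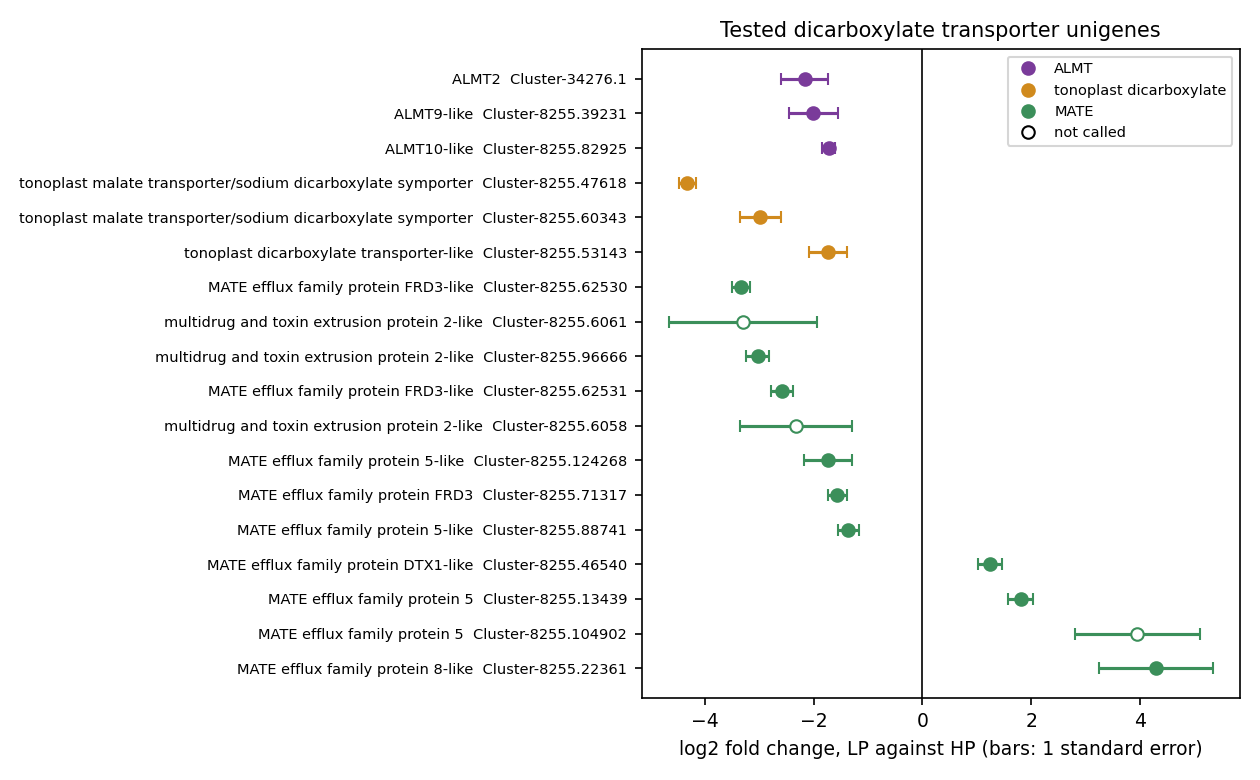
Log2 fold change of LP against HP (horizontal axis, bars 1 SE) for the 18 tested unigenes of the dicarboxylate transporter group, coloured by family, with open points for those not called. The ALMT unigenes lie between -2.16 and -1.72, the tonoplast dicarboxylate transporters between -4.32 and -1.73, and the MATE unigenes on both sides of 0.

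Tonoplast dicarboxylate transporters carry malate into the vacuole, and all 3 of their unigenes were called lower. Cluster-8255.53143 changed by -1.73 ± 0.34 (log2, SE), close to ALMT10-like, and Cluster-8255.60343 by -2.98 ± 0.38. Cluster-8255.47618 fell furthest, from 1187 ± 69.3 normalized counts under HP to 59.4 ± 9.76 under LP (SD, n = 3), a log2 fold change of -4.32 ± 0.15. Its decrease was larger than any of the 3 ALMT decreases.

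MATE proteins export citrate and a range of other compounds, and unlike the ALMT unigenes they moved both ways, with 6 of 12 tested called lower and 3 higher. The lower ones included relatives of FRD3, which loads citrate into the xylem in *Arabidopsis*. These were Cluster-8255.71317 at -1.57 ± 0.18, Cluster-8255.62531 at -2.58 ± 0.21 and Cluster-8255.62530 at -3.33 ± 0.17 (log2, SE). The higher ones were MATE5 (Cluster-8255.13439, 1.81 ± 0.23), a DTX1-like unigene (Cluster-8255.46540, 1.25 ± 0.22) and a MATE8-like unigene (Cluster-8255.22361). The last rested on 80 reads under LP and 3 under HP.

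The ALMT share of the summed FPKM of this group differed little between the treatments. It was 13.4%, 12.6% and 12.8% in the LP libraries and 13.8%, 14.3% and 13.9% in the HP libraries, so the groups did not overlap but lay within 2 percentage points. Over the same libraries the tonoplast dicarboxylate share went from 16.97% ± 0.634 under HP to 5.50% ± 0.921 under LP. The MATE share was 69.0% ± 0.403 under HP and 81.5% ± 1.22 under LP (SD, n = 3), although the summed MATE FPKM was itself lower under LP, at 66.5 ± 8.67 against 178 ± 4.06 under HP.

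**Figure D5:**
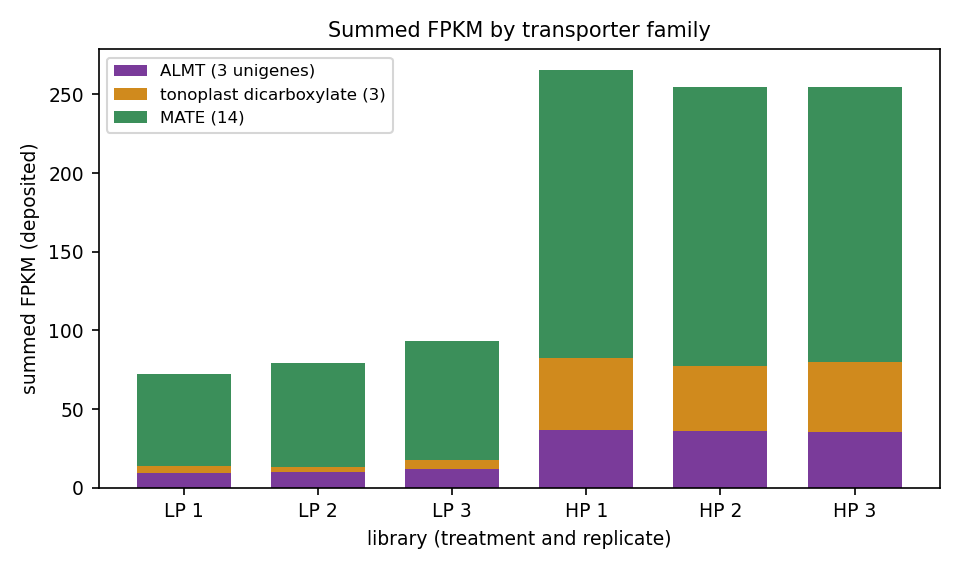
Summed FPKM (vertical axis, linear, from 0) of the ALMT, tonoplast dicarboxylate and MATE unigenes in each library, stacked by family. The ALMT layer is 9.69 to 11.92 FPKM in the LP libraries and 35.46 to 36.74 in the HP libraries, and the tonoplast layer shrinks by more than the ALMT layer.

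WRKY46 is a transcription factor that in *Arabidopsis* represses ALMT1, the malate channel of aluminum tolerance. A unigene described as a putative WRKY46 (Cluster-8255.45329) moved opposite to the ALMT unigenes, with 1045 ± 184 normalized counts under LP and 400.0 ± 44.5 under HP (SD, n = 3), a log2 fold change of 1.39 ± 0.16 (SE) that was called higher. It too had been listed by the study on these libraries, and whether it acts on any ALMT unigene of stylo was not tested.

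For each ALMT unigene, the listed transporters with the most similar pattern were ranked by the root mean square difference of their centred log2 CPM over the 6 libraries. Nearest to ALMT10-like were a RAN1-like copper ATPase (Cluster-8255.73169, 0.0763), a TIP4-1-like aquaporin (Cluster-8255.68525, 0.0845) and a boron transporter 2-like unigene (Cluster-8255.94300, 0.103). Nearest to ALMT2 were a sugar phosphate/phosphate translocator (Cluster-8255.26948, 0.178) and unigenes for zinc transporters 4 (Cluster-8255.85633, 0.195) and 2 (Cluster-8255.53894, 0.249). Nearest to ALMT9-like were the tonoplast dicarboxylate transporter Cluster-8255.53143 (0.231), an Nramp6-like unigene (Cluster-8255.83982, 0.249) and an ABCC10-like unigene (Cluster-8255.69543, 0.282). No ALMT unigene was among the 3 nearest of another, and the closest match of ALMT10-like was nearer than those of the other members. This measure includes the spread between replicates. The pooled SD of log2 normalized counts was 0.12 for ALMT10-like, 0.61 for ALMT2 and 0.61 for ALMT9-like. How far that spread set the distances was not tested. All of these transporters had been listed for a change in these libraries.

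Matches to a legume named 263 of the listed transporters (94.3%), and ALMT9-like was among them, whereas ALMT2 and ALMT10-like were named from grape and *Jatropha*. By identifier, ALMT2 was 1 of 2 listed transporters outside the large identifier group to which both other members belong, as were 1.55% of tested unigenes. Its only partner of the same number, Cluster-34276.0, had 10 reads under LP and 11 under HP and was not tested. The counts of ALMT9-like and ALMT10-like were not whole in 6 of 6 libraries and those of ALMT2 in 5 of 6, so part of their reads had been divided among similar unigenes and their split is uncertain.

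Unigenes with identifiers next to the ALMT members were looked up because neighbours in this numbering can be similar sequences. Among the listed transporters, 9 of 17 consecutive pairs bore the same name once qualifiers in the names were removed. Both unigenes of such a pair had been listed for a change, so this share need not hold for unnamed neighbours. Beside ALMT9-like, Cluster-8255.39230 had 4.40 ± 0.361 FPKM under LP and 3.83 ± 0.583 under HP, with overlapping libraries. Cluster-8255.39232 and Cluster-8255.39233 were not called, and their libraries overlapped too. Their mean normalized counts were 1.14-fold and 3.25-fold lower under LP. Cluster-8255.39233 had 18 reads under LP and 48 under HP. Beside ALMT10-like, Cluster-8255.82924 had 66.3 ± 6.23 FPKM under LP and 88.3 ± 4.82 under HP and was not called, and Cluster-8255.82923, a sulfate transporter 3.1-like unigene, was called lower at -4.32 ± 0.29 (log2, SE). On its other side, Cluster-8255.82926 had 16 reads under LP and 41 under HP and Cluster-8255.82927 had 17 and 46. Neither was tested, their LP and HP libraries overlapped, and their mean normalized counts were 3.34-fold and 3.47-fold lower under LP, beside 3.31-fold for ALMT10-like. The sources used here do not say which of the unnamed neighbours, if any, resembles an ALMT.

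The libraries held 20643446 to 21784888 counts under LP and 15586353 to 17821019 under HP, so the lower ALMT counts under LP came from the deeper libraries. SPX1 (Cluster-8255.18191), a marker of phosphate starvation, had 6483 ± 778 normalized counts under LP and 121 ± 9.76 under HP, the order that the titles give. Nitrate uptake genes of roots were present in both treatments, with NRT2.4-like (Cluster-8255.68588) at 18.3 FPKM under LP and 939 under HP. Of 4 photosynthesis unigenes taken from the study's lists of changed unigenes, 4 had reads in each LP library and 0 to 1 in the HP libraries. Their summed FPKM was 41.2 to 52.5 under LP and 0 to 0.27 under HP. Among them, Cluster-8255.14305 and Cluster-8255.9687 are described as fucoxanthin chlorophyll a/c proteins, which are pigment proteins of diatoms and brown algae, and had 91 and 79 reads under LP against 0 and 2 under HP. The photosystem I unigene Cluster-8255.71546 had 0 reads in all HP libraries. The 4 unigenes made up 0.00349% to 0.00440% of LP counts, and their part in the ALMT result was not tested. They, SPX1 and NRT2.4-like had been listed by the study for a change in these libraries, so their differences only describe them. Photosynthesis unigenes outside those lists were not looked up, so whether HP libraries lacked such RNA was not tested.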

How the data were processed

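RNA-seq was done on roots of RY2, 3 LP and 3 HP libraries. Samples were grouped by title and by the study's doses. The labels also name leaves and a directional kit where the study names roots and a kit without that property, and whether counting used strand is not stated there, so overlapping and antisense unigenes are uncertain.

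The authors trimmed paired reads, assembled unigenes with Trinity and ran RSEM at default settings. The submitters' processing notes also name Bowtie2 2.2.3. The deposited expected counts are estimated counts per unigene, not normalized and not whole in 34.0% to 36.4% of values per library. The FPKM values deposited beside them are scaled by the authors for length and library size. No genome was used, and no sequences are shown.

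Counts were rounded, filtered with filterByExpr (minimum count 10, 62040 unigenes kept), scaled by TMM (0.975 to 1.01) and fitted with edgeR 4.0.16 (limma 3.58.1, R 4.3.3), with p-values of the quasi-likelihood test adjusted by Benjamini-Hochberg across the tested unigenes. Normalized counts are scaled to a mean library size of 18618650. Log2 CPM used a prior count of 2. The SE of a log2 fold change was its absolute value divided by the square root of the F statistic of the quasi-likelihood test. The steps were also run on simulated counts. Their replicate spread was set to a fixed value and not taken from these libraries, so no error rate is read from that run. Nothing shows that replicates were more than separate boxes of 1 experiment, so the spread covers these boxes only.

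The members and lists were chosen with earlier results of these data known. Named unigenes are the ALMT unigenes, the rest of the study's dicarboxylate group, the 3 nearest transporters of each member, check unigenes, WRKY46, citrate-binding unigenes and unigenes of adjacent identifiers. Alternatives were DESeq2 1.42.0, other scalings and filters, limma on log2(FPKM + 1) and log2(FPKM + 0.1), a replicate block, unrounded counts, robust dispersions, stricter thresholds and each library left out, 19 fits in all.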

Additional observations from a re-analysis of the deposited data

How the results depend on the processing

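All 3 ALMT unigenes were lower under LP in each of the 19 alternative fits. The number called was 3 in the main fit, 1 to 3 when a library was left out (1 without HP replicate 1), 1 when the log2 fold change itself was tested against 1, and 1 at an adjusted p under 0.01. The called one was ALMT10-like in each of these fits, and it was called in 19 of 19, ALMT2 in 15 and ALMT9-like in 13. The members were chosen on these libraries, so these counts only describe the fits. Limma on log2(FPKM + 1) moved ALMT2 to -1.23 and ALMT9-like to -0.77. The dicarboxylate group went from 15 called to 8 when each log2 fold change was tested against 1. Over all unigenes, 8183 calls became 3053 in that test, 4214 at an adjusted p under 0.01 and 5586 to 8183 with a library left out. The log2 ratio of the summed ALMT FPKM ran from -1.88 to -1.72 with a library left out.

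Same-numbered LP and HP libraries had correlations of deviations of -0.0057, 0.0400 and 0.0487. Pairs with different numbers ran from -0.0634 to 0.0257. These values cannot show whether libraries of the same number were linked, because each treatment had only 3. With the replicate number as a block, 5167 unigenes were called, and ALMT2 stood at -2.24, ALMT9-like at -2.08 and ALMT10-like at -1.73, all called.

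The small effective length differences depended on single libraries. That of ALMT2 became 1.26 bases without LP replicate 1 (-12.8 to 1.26 over the fits with a library left out), and that of ALMT9-like -11.3 without LP replicate 2 (-11.3 to 28.2). Relative to the library median, the difference of ALMT10-like was -5.98 bases. The neighbour Cluster-8255.39232 turned to a log2 fold change of 0.12 without LP replicate 1 and ran from -0.49 to 0.12. The cause of these shifts was not tested. Of 641 values for the 38 other named unigenes, 29 lost and 7 gained a call, in 10 unigenes. ALMT2 and ALMT9-like had 60 and 59 reads in all LP libraries together, and their spread between libraries was wider than counting alone would give.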

Other observations

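Of 2 unigenes described as citrate-binding protein-like, 1 was tested and it rose under LP, opposite to the ALMT unigenes. Cluster-8255.16805 had 623 ± 140 normalized counts under LP and 5.002 ± 4.33 under HP (SD, n = 3), with a log2 fold change of 6.95 ± 0.45 (SE) that was called higher. Cluster-8255.116262 had 80 reads under LP and 0 under HP and was too low to be tested. Both had been listed by the study on these libraries.

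In the MATE family, 5 unigenes were not called or not tested. Cluster-8255.104902 had 65 reads under LP and 3 under HP, and Cluster-8255.110776 had 50 and 0. Cluster-8255.47682 had 0 reads under LP and 84 under HP. Cluster-8255.6058 and Cluster-8255.6061 had 61 and 24 reads under LP against 246 and 184 under HP, with wide replicate spread.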
